A study of Sus scrofa with 13 samples.

Results

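The muscle mixture is a single library of longissimus dorsi RNA pooled from multiple pig breeds and multiple time points, and it was set here against 3 single-stage libraries of the same muscle. Genes were taken where the RPKM (reads per kilobase of gene, divided by the sequencing depth of the library) reached at least 1 in the mixture or in at least 1 stage. This rule kept 10512 of the 21607 Ensembl genes listed, of which 6782 had a gene symbol. A gene was counted as above the range where the mixture exceeded the highest stage by 2-fold or more, and as below the range where it lay under the lowest stage by 2-fold or more, both on the log2(RPKM + 0.1) scale.

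The 3 stages were the longissimus dorsi of Guizhou mini-pigs at postnatal day 0, day 30 and day 240, untreated as far as the labels say. The mixture carries the labels "multiple breeds" and "multiple time points", and neither the breeds nor the ages in the pool are named, nor the number of animals in any of the 4 libraries. Its source label reads "multiple muscle tissues" while its tissue label reads longissimus dorsi. The series holds 13 libraries of ribosomal RNA-depleted total RNA, 11 of them from a single tissue at a single age, plus this mixture and a mixture of multiple tissues. Pools were made from equal quantities of each RNA, and libraries were strand-specific, by either a SMART or a dUTP protocol, without a statement of which library used which. Every group is 1 library, so no value below has a replicate check. The counting intervals given are exact 95% intervals on reads recovered from the RPKM values and cover counting error only. The mixture therefore differs from the stages in breed and age together, which cannot be told apart, and the part of the library protocol was not tested.

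The mixture was also the deepest of the 4 libraries. It held 18656109 counted reads, while the stages held 7288042, 3620348 and 7154465 in order of age. Counted reads made up 29.6% of the total behind the RPKM values in the mixture and 14.8% to 21.9% in the stages, and the RPKM values of all Ensembl genes summed to 148538 in the mixture and to 76605 to 121890 in the stages. For a gene of 1 kb, 3 reads corresponded to 0.0476 RPKM in the mixture and to 0.0839 to 0.123 RPKM in the stages.

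Skeletal muscle is built from long multinucleate fibres whose contractile proteins exist as families of isoforms. Embryonic, neonatal and cardiac-type myosins and actins are used while fibres form, and adult fast and slow isoforms take over after birth as fibres enlarge, build mitochondria and settle into their metabolic type. Proliferating myoblasts and fibroblasts, abundant extracellular matrix and high ribosome production are usual features of young, growing muscle. Because bulk RNA was measured, fewer cells of a type and less RNA per cell cannot be told apart.

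As deposited, the mixture lay above the stages for most genes. It exceeded the highest stage by any amount for 8013 genes (76.2%) and lay under the lowest stage by any amount for 274 (2.61%). Of the 10512 genes, 4624 (44.0%) were above the range by 2-fold or more and 56 (0.533%) were below it, while 3389 were above by less, 2225 lay within the range and 218 were below by less. The filter admitted 2669 (25.4%) of the 10512 genes through the mixture alone, with every stage under 1 RPKM. Such genes made up 2261 (48.9%) of the 4624 above the range and 0 of the 56 below it, so the filter itself raised the share above. The median log2 difference was 1.09 against day 0, 1.86 against day 30 and 1.73 against day 240. The typical gene was thus higher in the mixture than in each of the 3 stages.

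To describe genes relative to the typical gene, each library was also divided by its median ratio to the geometric mean of the 4 libraries over the 9703 genes above 0 in all of them. The divisors were 2.29 for the mixture, 1.11 for day 0, 0.605 for day 30 and 0.696 for day 240. After this scaling 1107 genes (10.5%) were above the range and 723 (6.88%) were below it, so that calls above the range made up 60.5% of all calls compared with 98.8% as deposited. Of these 1107 genes, 856 (77.3%) were under 1 RPKM in every stage as deposited and had passed the filter through the mixture alone. All 1107 scaled calls above the range and all 56 deposited calls below it were also called on the other scale in the same direction. This overlap follows from the divisors, because the largest belongs to the mixture and lowers it against every stage, so it is no separate check. In what follows a position "relative to the typical gene" is one after this scaling, and every list of genes is read against these percentages.

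**Figure D1:**
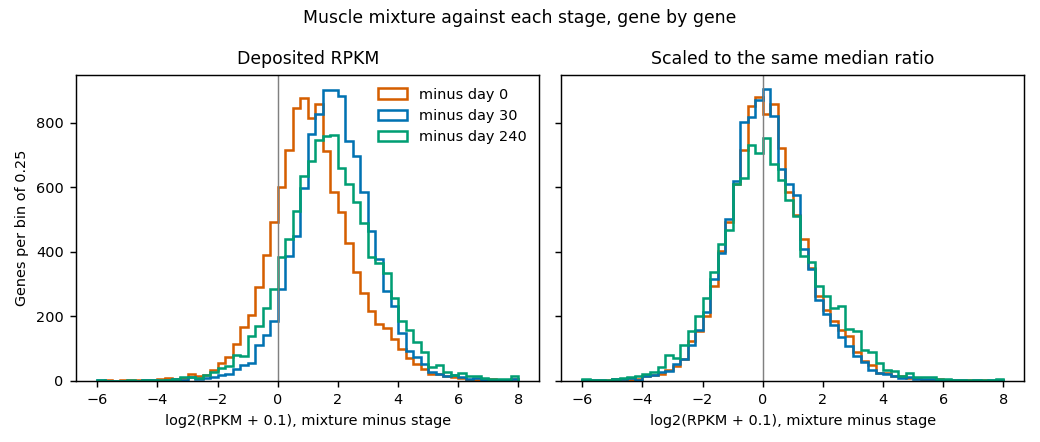
Histograms of the log2(RPKM + 0.1) difference of the mixture minus day 0, day 30 or day 240 for 10512 genes, in bins of 0.25, with values beyond the axis placed in the end bins. As deposited the medians are 1.09, 1.86 and 1.73, and after scaling to the same median ratio the 3 curves centre close to 0.

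The stage nearest to the mixture depended on the scale. For a gene above every stage, as 8013 (76.2%) were as deposited, the nearest stage is by definition the highest stage. For those genes the counts rank the stages among themselves and do not measure a likeness of the mixture. As deposited, day 0 was the nearest stage for 57.0% of genes, day 30 for 21.9% and day 240 for 21.2%. Relative to the typical gene the shares were 37.2% for day 0, 37.9% for day 30 and 24.9% for day 240, with day 240 behind the other stages. Among the 7301 genes that differed by 2-fold or more among the stages themselves, the deposited shares were 60.3%, 20.7% and 18.97%, and the scaled shares were 35.7%, 40.4% and 24.0%, in the same order of stages. In all, 95 genes were as near to more than 1 stage and were counted under the younger.

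Across genes, Spearman's rho with the mixture was 0.724 for day 0, 0.706 for day 30 and 0.674 for day 240 (n = 10512 genes, which share libraries and are not independent). The stages correlated with each other at 0.779 to 0.828, each value above those with the mixture. Of these genes, 2669 (25.4%) passed the filter through the mixture alone and were under 1 RPKM in every stage. Such genes can lower rho with the mixture, so the values do not settle which libraries are closest. Rank correlation does not depend on scaling, and day 240 had the lowest value.

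The genes just at the limits show how narrow the classes are. ZZZ3 (15.8 RPKM in the mixture and 7.87 in the highest stage) and TIAL1 (7.96 and 3.93) fell just past the upper limit, and COX16 (2.23 and 1.06) and CBL (2.52 and 1.21) just short of it. At the lower limit GSK3A (1.77 in the mixture and 3.66 in the lowest stage) and SNRNP27 (5.44 and 11.1) were just past it, and BAG3 (2.56 and 4.89) and CAMK2A (0.749 and 1.48) just short.

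Contractile isoforms of fetal and cardiac muscle were far above the stages in the mixture. MYL4, the atrial and embryonic essential light chain, stood at 92.2 RPKM in the mixture (3538 reads), 0.505 at day 0 (11 reads) and 0 at days 30 and 240. It was thus present at a high level in the pool and almost undetected in the 3 stages. Its ratio to day 0 was 182 (interval 102 to 366), and its log2 difference from the highest stage, 7.25, was the largest of any named gene at 5 RPKM or more. ACTC1, cardiac alpha-actin, which developing skeletal muscle also expresses, measured 344 RPKM in the mixture, 84.9 at day 0, 7.23 at day 30 and 0.939 at day 240. The stages thus descended with age and the mixture lay above the youngest of them.

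TNNT2, cardiac troponin T, measured 42.5 RPKM in the mixture and 4.03, 4.33 and 6.07 at days 0, 30 and 240. NES, the intermediate filament protein nestin of immature fibres, measured 33.5 RPKM in the mixture and 2.23, 1.15 and 0.341 in the same order of stages. ANKRD1, a titin-associated stress protein, measured 44.9 RPKM and 21.9, 4.66 and 1.18. Of the 11 genes fixed for this list, 7 were found, 5 passed the filter, and all 5 were above the range, against a background of 44.0%. Relative to the typical gene MYL4, NES and TNNT2 (3 of 5) stayed above it, against a background of 10.5%, with ACTC1 just short at a log2 difference of 0.97 and ANKRD1 level with day 0 at -0.01. Day 0 was the nearest stage for 4 of the 5 on either scale. These genes are also cardiac genes. The members found that did not pass the filter were MYBPC3 and NPPB. MYBPC3 measured 0.130 RPKM in the mixture and 0.0739, 0 and 0.405 at days 0, 30 and 240, and NPPB 0 throughout. The markers of other organs given below are not heart markers, and the part of heart tissue was not tested.

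Myosin heavy chains, the motor proteins, showed a different order of stages. MYH3, embryonic myosin, measured 380 RPKM in the mixture against 37.3 at day 0, 80.7 at day 30 and 96.3 at day 240, a ratio of 3.95 to the highest stage (interval 3.89 to 4.01). MYH8, the neonatal form, measured 1544 RPKM in the mixture and 1888, 2442 and 3695 at days 0, 30 and 240, which places the mixture below all 3 by less than 2-fold. MYH13, listed among the adult fast forms and best known from eye muscles, measured 99.7 RPKM and 61.1, 302 and 385. The mixture thus sat between day 0 and day 30 for MYH13, above every stage for MYH3 and below every stage for MYH8.

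Among slow and cardiac heavy chains, MYH6 measured 431 RPKM in the mixture and 379, 378 and 768 at days 0, 30 and 240. MYH7B measured 7.32 RPKM and 2.20, 1.44 and 2.34, and MYH15 measured 2.54 RPKM and 0.118, 0.00864 and 0. MYH7B and MYH15 were above the range as deposited, and only MYH15 was above it relative to the typical gene. Myosin heavy chain genes are near-identical over long stretches, so reads could be divided unevenly between them, and their levels are uncertain for that reason. Of the other adult fast heavy chains fixed for the list, none had a matching symbol.

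The fast-fibre thin filament and light chain genes of the list did not share the general displacement. None of the 8 that passed was outside the range as deposited, and 4 of 8 were below it relative to the typical gene, against 6.88% of all genes. TNNC2, fast troponin C, measured 2369 RPKM in the mixture, 4717 at day 0, 2877 at day 30 and 10378 at day 240. CASQ1, the calcium-binding calsequestrin of the fast-fibre reticulum, measured 150 RPKM and 210, 420 and 642. Both lay under all 3 stages by less than 2-fold as deposited. MYL1 (3134 RPKM in the mixture and 2402, 1844 and 3798 in the stages) and TPM1 (2588 and 1865, 2362 and 4947) lay inside the range. The result covers the 8 listed genes and not every abundant myosin light chain of the mixture. MYL11, a myosin light chain that the list left out, was 2.88-fold above the highest stage as deposited. After scaling MYL11 was within the range. It measured 3905 RPKM in the mixture and 1154, 962 and 1358 at days 0, 30 and 240. On the scaled values 7 of the 8 genes were nearest to day 0.

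Slow-fibre partners were mixed. TNNI1, slow troponin I, measured 157 RPKM in the mixture and 45.1, 42.8 and 72.7 at days 0, 30 and 240, and MYBPC1, slow myosin-binding protein C, measured 505 RPKM and 143, 104 and 191. Both were above the range as deposited and neither was relative to the typical gene. TNNT1, slow troponin T, measured 297 RPKM and 630, 472 and 987, below every stage. Of 7 slow-fibre genes that passed, 2 were above and 0 below as deposited, and 0 above and 2 below after scaling.

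Sarcomere scaffold genes, which hold filaments in register, were seldom outside the range by 2-fold as deposited. Of 22 that passed, 3 were above and 1 below as deposited, and 1 above and 6 below after scaling. ACTA1, skeletal alpha-actin, measured 3069 RPKM in the mixture and 2012, 3183 and 2998 at days 0, 30 and 240, and NEB, nebulin, 534 RPKM and 504, 640 and 911. TPM2 measured 1326 RPKM in the mixture and 3250, 1964 and 2987, below every stage. Among 17 excitation-contraction coupling genes, 3 were above and 1 below as deposited. The gene below was TRDN, triadin, which anchors the calcium release complex, at 184 RPKM in the mixture and 378, 488 and 526 in the stages.

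**Figure D2:**
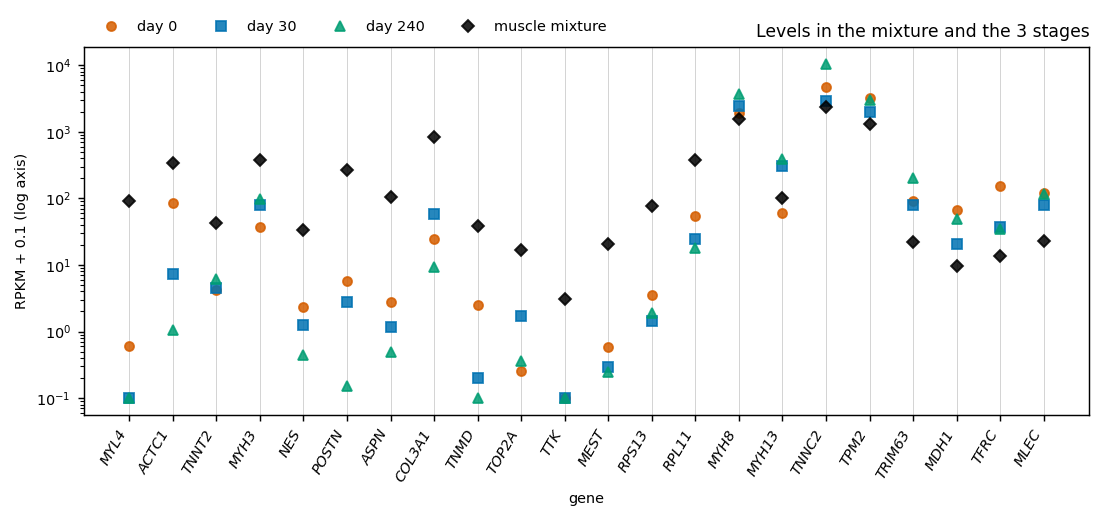
RPKM + 0.1 (log axis) of 22 named genes in the mixture (diamonds) and at day 0, day 30 and day 240 (circles, squares and triangles). From MYL4 to RPL11 the mixture is the highest of the 4 libraries; for MYH8, TNNC2, TPM2, TRIM63, MDH1, TFRC and MLEC it is the lowest, and MYH13 lies between day 0 and day 30.

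Myogenic regulators, the transcription factors and cell-surface proteins that set and maintain muscle identity, were above the range as deposited in most cases and seldom after scaling. Of 20 that passed, 14 were above the range as deposited and 2 were above it after scaling. Their median log2 difference from the highest stage was 1.60 as deposited and -0.12 after scaling, beside 0.84 and -0.54 over all members. The 2 that remained were JAM3, a junctional adhesion molecule (21.2 RPKM in the mixture and 1.79, 1.22 and 1.86 at days 0, 30 and 240), and MYMK, the fusion protein myomaker (3.12 and 0, 0.369 and 0). MYMK rested on 131 reads in the mixture and on 6 reads at day 30, and its ratio to day 30 was 8.47 (interval 3.79 to 23.5).

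The determination factors were above the range as deposited. MYOD1 measured 6.98 RPKM in the mixture and 0.870, 1.01 and 0.877 at days 0, 30 and 240. MYF5, which marks satellite cells and myoblasts, measured 4.41 RPKM and 1.12, 0.0860 and 0.0322. Relative to the typical gene both exceeded the highest stage by less than 2-fold, at 0.83 and 0.87 on the log2 scale. MYF6, the factor of mature fibres, stood apart at 8.97 RPKM in the mixture and 6.56, 4.94 and 17.7 in the stages, inside the range on the deposited scale. MSTN, the growth inhibitor myostatin, measured 28.5 RPKM and 1.42, 1.38 and 5.20, and its antagonist FST, follistatin, measured 3.17 RPKM and 1.07, 1.02 and 0.182.

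VGLL2 (7.07 RPKM in the mixture and 1.02 to 1.85 in the stages), MEF2A (15.9 and 3.29 to 4.76), CDH15 (6.70 and 0.170 to 1.19), NCAM1 (4.88 and 0.346 to 1.42) and the histone deacetylases HDAC4 (1.33 and 0.143 to 0.519), HDAC5 (6.34 and 1.39 to 2.83) and HDAC9 (6.96 and 2.63 to 2.79) were above the range as deposited. MEF2C (80.1 and 20.03 to 54.0), MEF2D (3.34 and 2.45 to 3.04), SRF (4.42 and 0.616 to 2.57), SIX4 (4.22 and 1.18 to 2.83) and CDON (4.60 and 0.394 to 2.99) exceeded the highest stage by less than 2-fold.

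Neuromuscular junction genes gave 4 above of 7 as deposited and 3 of 7 after scaling, against 44.0% and 10.5% of all genes. All 4 were under 1 RPKM in every stage and passed the filter through the mixture alone. Their position above the range was therefore partly set by the filter. COLQ, which anchors acetylcholinesterase, measured 3.46 RPKM in the mixture and 0.616, 0.0273 and 0.0613 at days 0, 30 and 240, and ACHE, the enzyme itself, measured 1.01 RPKM and 0.119, 0.0348 and 0. MUSK, the receptor kinase that organises the synapse, exceeded the stages by less than 2-fold at 2.95 RPKM and 0.447, 1.90 and 0.167.

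Fetal growth and imprinted genes were above the range in 10 of 11 cases as deposited and in 4 of 11 after scaling, with 1 of 11 below it. The shares over all genes were 44.0%, 10.5% and 6.88%. MEST and IGF2BP1 were under 1 RPKM in every stage and passed the filter through the mixture alone, which favoured a position above. MEST, a paternally expressed gene of growing mesodermal tissue, measured 20.5 RPKM in the mixture and 0.478, 0.191 and 0.143 at days 0, 30 and 240, a ratio of 42.9 to day 0 (interval 32.9 to 57.0). IGF2BP1, an RNA-binding protein of embryonic tissue, had 247 reads in the mixture (1.47 RPKM) and 0 in every stage. It was 46.7-fold higher than day 0 if day 0 is put at 3 reads, and the lower limit of the counting interval was 37.7-fold. GPC3, a growth-restraining proteoglycan, measured 12.9 RPKM and 2.25, 2.78 and 0.359, and PLAGL1 5.59 RPKM and 1.97, 0.658 and 0.274. Day 0 was the nearest stage for 6 of the 11 genes as deposited and for 5 of 11 after scaling, against 57.0% and 37.2% of all genes. In the growth hormone and IGF axis 7 of 15 genes were above as deposited, near the 44.0% of all genes, and 0 of 15 after scaling.

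Cell cycle genes formed the list with the largest share above the range among those with 10 or more members. Of 25 that passed, 23 were above the range as deposited (background 44.0%) and 16 after scaling (background 10.5%), with 0 below on either scale. Only CCNB2, BUB1B, TPX2, RRM1, CENPF and TOP2A reached 1 RPKM in a stage, and of these TOP2A alone was above the range after scaling. The other members passed the filter through the mixture alone, so their share above was partly set by the filter. The median log2 difference from the highest stage was 2.84 and 1.14, beside 0.84 and -0.54 over all members. Their summed level was 103 RPKM in the mixture and 6.01, 14.0 and 4.22 at days 0, 30 and 240. TOP2A, topoisomerase II alpha, measured 16.9 RPKM in the mixture and 0.157, 1.63 and 0.257 in the stages, a ratio of 10.4 to day 30 (interval 9.07 to 11.9). TTK, a spindle checkpoint kinase, had 394 reads in the mixture (2.98 RPKM) and 0 in every stage. With day 0 put at 3 reads it was 74.5-fold above day 0, and the lower limit of the counting interval was 60.3-fold.

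KIF20A, a mitotic kinesin, measured 4.15 RPKM in the mixture and 0.0258, 0.0755 and 0 at days 0, 30 and 240, and CENPF, a kinetochore protein, 6.53 RPKM and 0.0355, 1.36 and 0.0893. The gene CCNB2, a mitotic cyclin, was an exception inside the range, at 1.72 RPKM in the mixture, 0 at day 0, 2.30 at day 30 and 0.0514 at day 240. Day 30 was the nearest stage for 17 of the 25 genes as deposited and for 19 of 25 after scaling, against 21.9% and 37.9% of all genes. For members above every stage the nearest stage is the highest stage. In the summed level, day 30 was the highest of the 3 stages.

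Of genes outside the list, PCLAF, STMN1 and CCNG2 were among the 15 named genes furthest above the range. PCLAF, a PCNA-binding protein, measured 7.22 RPKM in the mixture and 0.0338, 0.173 and 0 at days 0, 30 and 240, and STMN1, the microtubule regulator stathmin, 61.2 RPKM and 0.960, 2.44 and 1.39. CCNG2, a cyclin linked to cell cycle arrest, measured 5.97 RPKM and 0.0503, 0.132 and 0.0992. Of the replication-dependent histones 2 passed the filter, and H1-3, a linker histone, was the further above the range at 106 RPKM in the mixture and 5.11, 4.72 and 1.79.

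Extracellular matrix and fibroblast genes were far above the stages in the mixture. Their median log2 difference from the highest stage was 2.17 as deposited and 0.56 after scaling, beside 0.84 and -0.54 over all members. Of 40 that passed, 29 were above the range as deposited and 16 after scaling, with 0 and 1 below. Their summed level was 2659 RPKM in the mixture and 382, 251 and 117 at days 0, 30 and 240. POSTN, the matrix protein periostin, measured 269 RPKM in the mixture, 5.62 at day 0, 2.69 at day 30 and 0.0526 at day 240, and its ratio to day 0 was 47.9 (interval 45.1 to 51.0). ASPN, asporin, a small proteoglycan that binds collagen, measured 104 RPKM and 2.71, 1.08 and 0.387.

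Both genes descended from day 0 to day 240 and the mixture lay far above day 0. COL3A1, type III collagen of reticular fibres, measured 841 RPKM in the mixture and 24.6, 58.1 and 9.22 in the stages. COL1A2, type I collagen, measured 195 RPKM and 51.2, 21.8 and 3.61, and DCN, decorin, 186 RPKM and 23.1, 16.5 and 25.1. Relative to the typical gene COL3A1 and DCN stayed above the range at 1.93 and 1.17 on the log2 scale, and COL1A2 was just short at 0.88. COMP, cartilage oligomeric matrix protein, lay inside a wide range at 2.02 RPKM in the mixture and 11.1, 0 and 0.0623 in the stages.

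Of 20 collagen genes that passed, 18 were above as deposited and 10 after scaling, and 0 were below. COL5A1, which nucleates collagen fibrils, measured 45.2 RPKM in the mixture and 1.07, 2.63 and 0.126 at days 0, 30 and 240, and COL21A1 33.0 RPKM and 1.53, 1.2998 and 0.753. No collagen was nearest to day 240 on either scale, and 12 of 20 were nearest to day 0 and 8 to day 30 as deposited. Among 6 tenocyte and cartilage genes, 4 were above as deposited and 3 after scaling. TNMD, tenomodulin of tendon cells, measured 37.8 RPKM in the mixture and 2.39, 0.103 and 0, and FMOD, fibromodulin, 24.7 RPKM and 4.68, 0.593 and 0.408.

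Further secreted and matrix-related genes were among the 15 furthest above the range. MDK, the growth factor midkine, measured 17.2 RPKM in the mixture and 0.0344, 0.252 and 0.226 at days 0, 30 and 240. SPP1, osteopontin, measured 13.6 RPKM and 0.274, 0.343 and 0.214, and C1QTNF3, a secreted collagen-like factor, 39.1 RPKM and 1.13, 0.525 and 0.293. SFRP2, a secreted Wnt antagonist, measured 8.58 RPKM and 0.201, 0.0783 and 0. The rest were EMILIN1, an elastic fibre protein (7.04 RPKM and at most 0.141), SEMA3A, an axon guidance signal (11.1 and at most 0.295), PRTFDC1 (5.97 and at most 0.157) and PRR32 (6.97 and at most 0.0452).

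Ribosomal protein genes had a summed level that was highest at day 0 and lowest at day 30 among the stages. As deposited, the sum in the mixture exceeded every stage. Of 27 that passed, 17 were above as deposited and 5 after scaling, with 0 and 2 below. Their summed level was 3419 RPKM in the mixture and 1798, 515 and 785 at days 0, 30 and 240. RPL11, a large-subunit protein, measured 375 RPKM in the mixture and 54.2, 24.7 and 17.7, and RPS13, of the small subunit, 77.6 RPKM and 3.401, 1.32 and 1.79. RPLP2, of the ribosomal stalk, was an exception at 113 RPKM and 565, 158 and 159, below every stage. Day 0 was the nearest stage for 23 of the 27 genes as deposited and for 16 of 27 after scaling, against 57.0% and 37.2% of all genes. Ribosomal protein genes have many processed pseudogene copies that can share reads, so single members are uncertain.

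**Figure D3:**
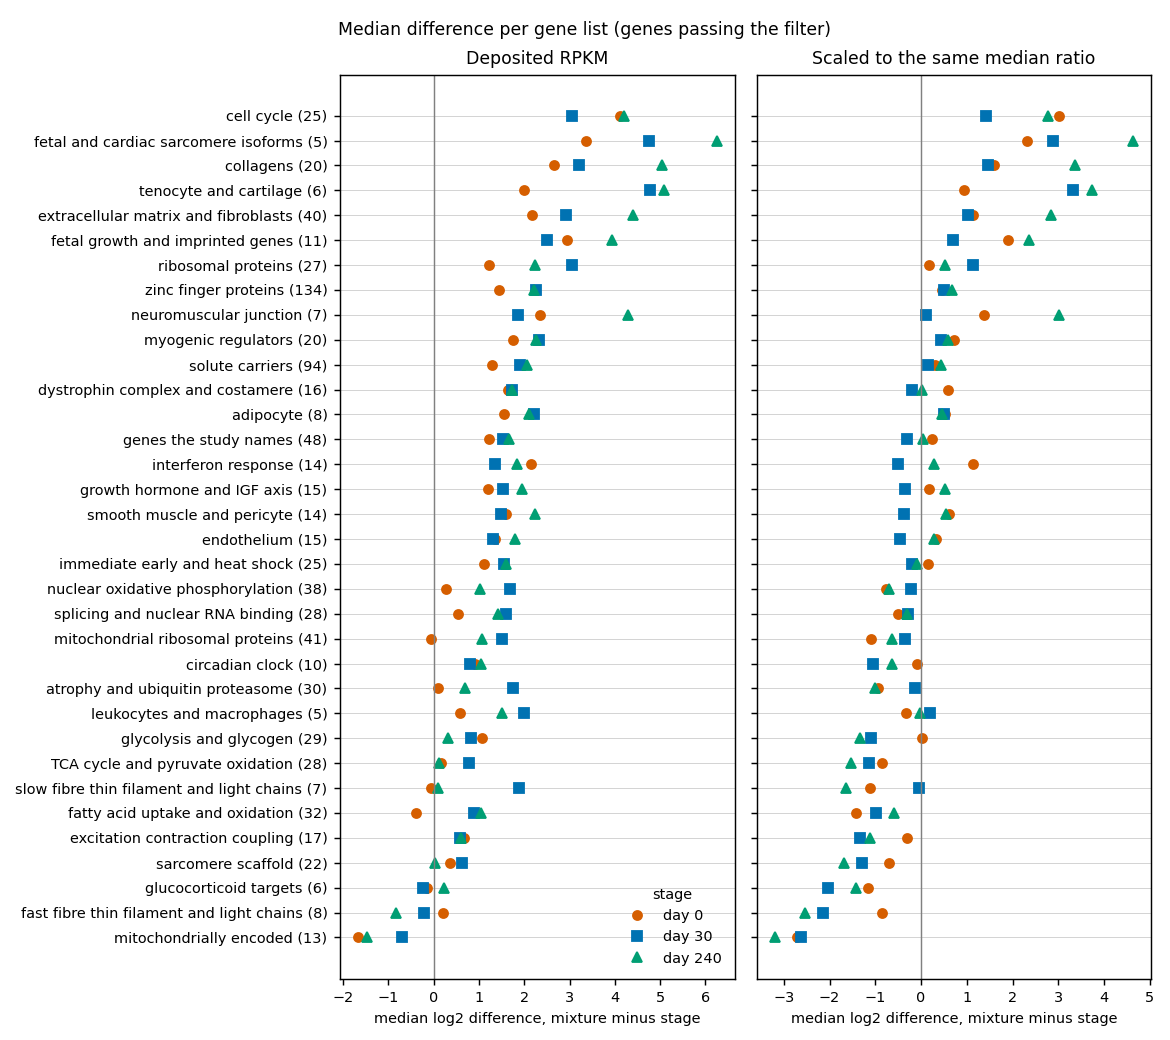
Median log2 difference of the mixture minus each stage for the 34 gene lists with at least 5 genes passing the filter (number in brackets), as deposited and after scaling to the same median ratio, ordered by the scaled median difference from the highest stage. Cell cycle, fetal sarcomere, collagen, tendon and matrix lists lie furthest to the right, and mitochondrially encoded and fast-fibre lists furthest to the left.

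Genes of the mitochondrial genome had the lowest median difference from the highest stage of the 34 lists with at least 5 members, -1.67 as deposited and -3.20 after scaling. Of the 13 protein-coding genes, 0 were above and 6 below the range as deposited (background 0.533%), and 12 of 13 were below it after scaling (background 6.88%). ND1, a subunit of respiratory complex I, measured 153 RPKM in the mixture and 2755, 855 and 2637 at days 0, 30 and 240, a ratio of 0.178 to day 30 (interval 0.174 to 0.183). ND4, of the same complex, measured 122 RPKM and 1603, 634 and 1205. ND6, the complex I subunit encoded on the opposite strand from the rest, measured 30.4 RPKM and 271, 173 and 225. ND5, ATP6 and CYTB completed the 6.

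The genes of this small genome were not displaced by a common amount. COX1, of complex IV, measured 5788 RPKM in the mixture, slightly above its 4917, 2302 and 4406 RPKM at days 0, 30 and 240, and was the most abundant Ensembl gene of the mixture. COX2 measured 1604 RPKM and 2630, 849 and 2467. COX1 took 74.6% of the reads on the 13 genes in the mixture and 35.5%, 39.6% and 37.0% at days 0, 30 and 240. The corresponding share was 85.6% in the tissue mixture and 26.9% to 47.5% in the 11 single-tissue libraries, so both pooled libraries lay outside the range of the single-tissue libraries. The part in these results of whatever sets pooled libraries apart was not tested.

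**Figure D4:**
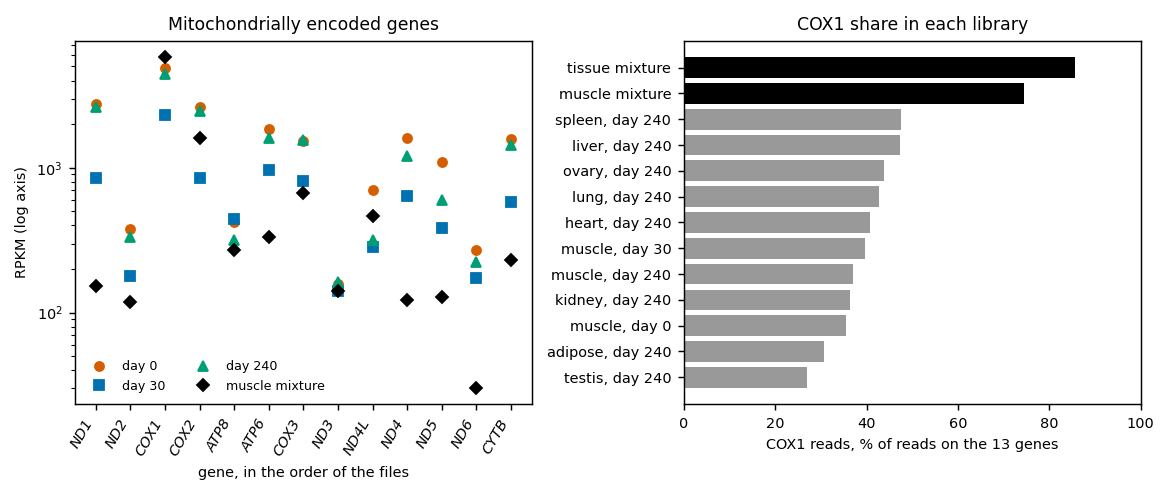
Left, RPKM (log axis) of the 13 mitochondrially encoded genes in the mixture and the 3 stages. Right, COX1 reads as a percentage of reads on the 13 genes in each of the 13 libraries (pooled libraries in black), with 74.6% and 85.6% in the 2 pooled libraries and 26.9% to 47.5% in the others.

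Nuclear genes of energy metabolism were seldom above the range. Of 38 nuclear oxidative phosphorylation genes, 7 were above and 0 below as deposited, and 0 above and 8 below after scaling. NDUFA4 measured 142 RPKM in the mixture and 91.3, 30.1 and 43.5 at days 0, 30 and 240, and CYCS, cytochrome c, 73.0 RPKM and 215, 37.7 and 89.9. After scaling, day 30 was the nearest stage for 24 of the 38, while day 0 was for 28 of the 38 as deposited. The 41 mitochondrial ribosomal proteins gave 3 above and 0 below as deposited, and 1 above and 7 below after scaling.

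Of 28 genes of the TCA cycle and pyruvate oxidation, 3 were above and 1 below as deposited, and 0 above and 9 below after scaling. MDH1, cytosolic malate dehydrogenase, measured 9.58 RPKM in the mixture and 67.8, 20.3 and 48.8 at days 0, 30 and 240. PDK4, which switches off pyruvate oxidation in fasting, measured 76.3 RPKM and 277, 94.2 and 7.27. Of 32 fatty acid genes, 1 was above and 1 below as deposited, and 0 above and 9 below after scaling. The gene below was CRAT, carnitine acetyltransferase, at 15.6 RPKM and 36.4, 37.6 and 51.9.

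Glycolytic genes were seldom outside the range by 2-fold. Of 29, 5 were above and 0 below as deposited, and none was outside the range by 2-fold after scaling. Their median log2 difference from the highest stage was 0.15 as deposited and -1.41 after scaling. GAPDH measured 2571 RPKM in the mixture and 1532, 2466 and 4325 at days 0, 30 and 240, and LDHA, the muscle lactate dehydrogenase subunit, 470 RPKM and 214, 490 and 1301. Both were higher at each later stage, and after scaling 20 of the 29 genes were nearest to day 0.

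Beside the mitochondrial genes, the 15 genes furthest below the range included TRIM63, the atrophy-linked ubiquitin ligase MuRF1, at 22.4 RPKM in the mixture and 91.4, 80.6 and 205 at days 0, 30 and 240. TFRC, the transferrin receptor for iron uptake, measured 13.5 RPKM and 154, 36.6 and 35.1. MLEC, an endoplasmic reticulum lectin, measured 23.2 RPKM and 122, 78.3 and 117. The ratio of TRIM63 to its lowest stage was 0.277 (interval 0.260 to 0.296).

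The others were RAB7A, a late endosome GTPase (9.62 RPKM in the mixture and 27.0 to 46.3 in the stages), COX17, a copper chaperone of complex IV (24.0 and 61.4 to 104), SRP14, of the signal recognition particle (3.38 and 8.94 to 46.1), DPF3 (3.70 and 10.3 to 13.9), NKAP (3.22 and 8.92 to 13.8) and TMEM52 (1.25 and 4.10 to 10.7). Of the 56 genes below the range, 26 (46.4%) had a symbol, compared with 64.5% of all 10512. Their median gene length was 978 bases, against 1892 for all genes and 2086 for genes above the range.

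Regulatory lists gave varied shares, beside 44.0% of all genes above the range as deposited and 10.5% after scaling. Of 134 zinc finger genes, 84 were above as deposited and 24 after scaling, with 0 and 1 below. Of 14 interferon-response genes, 8 were above as deposited and 0 after scaling, and IFIT5 was the highest-ranking at 11.2 RPKM in the mixture and 0.934, 1.54 and 0.610. Immediate early and heat shock genes gave 11 of 25 (44.0%) above as deposited and 2 of 25 (8.0%) after scaling, no more than all genes. JUNB, an immediate early factor, measured 3.37 RPKM in the mixture and 0, 0.130 and 0, and passed the filter through the mixture alone. The chaperone HSPD1 measured 30.2 RPKM and 130, 10.4 and 16.3. Glucocorticoid targets gave 0 of 6 outside the range as deposited and 3 of 6 below it after scaling, among them FKBP5 at 9.26 RPKM and 26.7, 25.8 and 15.6.

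Markers of other cell types were counted in the same way. Of 34 genes fixed as markers of other organs that were found, 2 passed the filter and 19 had 0 reads in the mixture, and their summed level was 3.48 RPKM in the mixture and 0.887, 3.70 and 1.11 at days 0, 30 and 240. The 2 were CPA1 (1.82 RPKM in the mixture) and ALB (0.332 in the mixture and 2.25 at day 30). Of 29 keratins none passed. Of 23 leukocyte genes 5 passed, with sums of 13.9 RPKM and 7.46, 4.44 and 3.74, and C1QA, of complement, was above the range at 5.03 RPKM and 0.0765, 0.522 and 0.112. FCER1G, an Fc receptor chain, lay under every stage at 0.280 RPKM and 2.69, 0.444 and 0.416, and TYROBP and PTPRC lay within the range.

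Of 10 blood genes 3 passed, with list sums of 130 RPKM in the mixture and 175, 45.8 and 45.8 in the stages, and 1 was above and 1 below the range. They were HBB, beta-globin, at 113 RPKM in the mixture and 19.6, 7.27 and 9.36 at days 0, 30 and 240, and TFRC, given above, while GATA1 stood at 0.0109 and KLF1 at 0. Of 18 adipocyte genes 8 passed, and their sums were 83.2 RPKM and 31.2, 55.4 and 78.9, with 4 of 8 above the range as deposited and 2 of 8 after scaling, among them FASN, fatty acid synthase, at 3.68 RPKM and 0.255, 0.402 and 0.161. Of 10 nerve and Schwann cell genes 3 passed, with sums of 9.26 RPKM and 4.27, 2.33 and 0.787, and NGFR (1.05 RPKM and at most 0.0370) and CDH19 (1.10 and at most 0.389) were above the range as deposited and NGFR alone after scaling. Endothelial genes gave 7 of 15 above as deposited and 0 of 15 after scaling, and smooth muscle and pericyte genes 7 of 14 and 1 of 14. Over all genes the shares were 44.0% and 10.5%. The skeletal muscle label was met by ACTA1, MYL1, TNNC2 and TPM1, at 2369 to 3134 RPKM in the mixture.

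By list, the nearest stage was the one with the smallest median absolute log2 difference over the members that passed. For members above every stage, the smallest difference is by definition the one to the highest stage. Of 34 lists with at least 5 such members, 21 were nearest to day 0, 10 to day 30 and 3 to day 240 as deposited. After scaling 16 were nearest to day 0, 17 to day 30 and 1 to day 240. Lists nearest to day 0 on both scales were the fetal and cardiac sarcomere isoforms, the fast-fibre genes, the ribosomal proteins, the tenocyte and cartilage genes, the dystrophin complex, the myogenic regulators, the adipocyte genes, the zinc finger genes, excitation-contraction coupling and the solute carriers. Lists nearest to day 30 on both scales included the cell cycle, fetal growth, neuromuscular junction, interferon, smooth muscle and mitochondrially encoded genes.

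**Figure D5:**
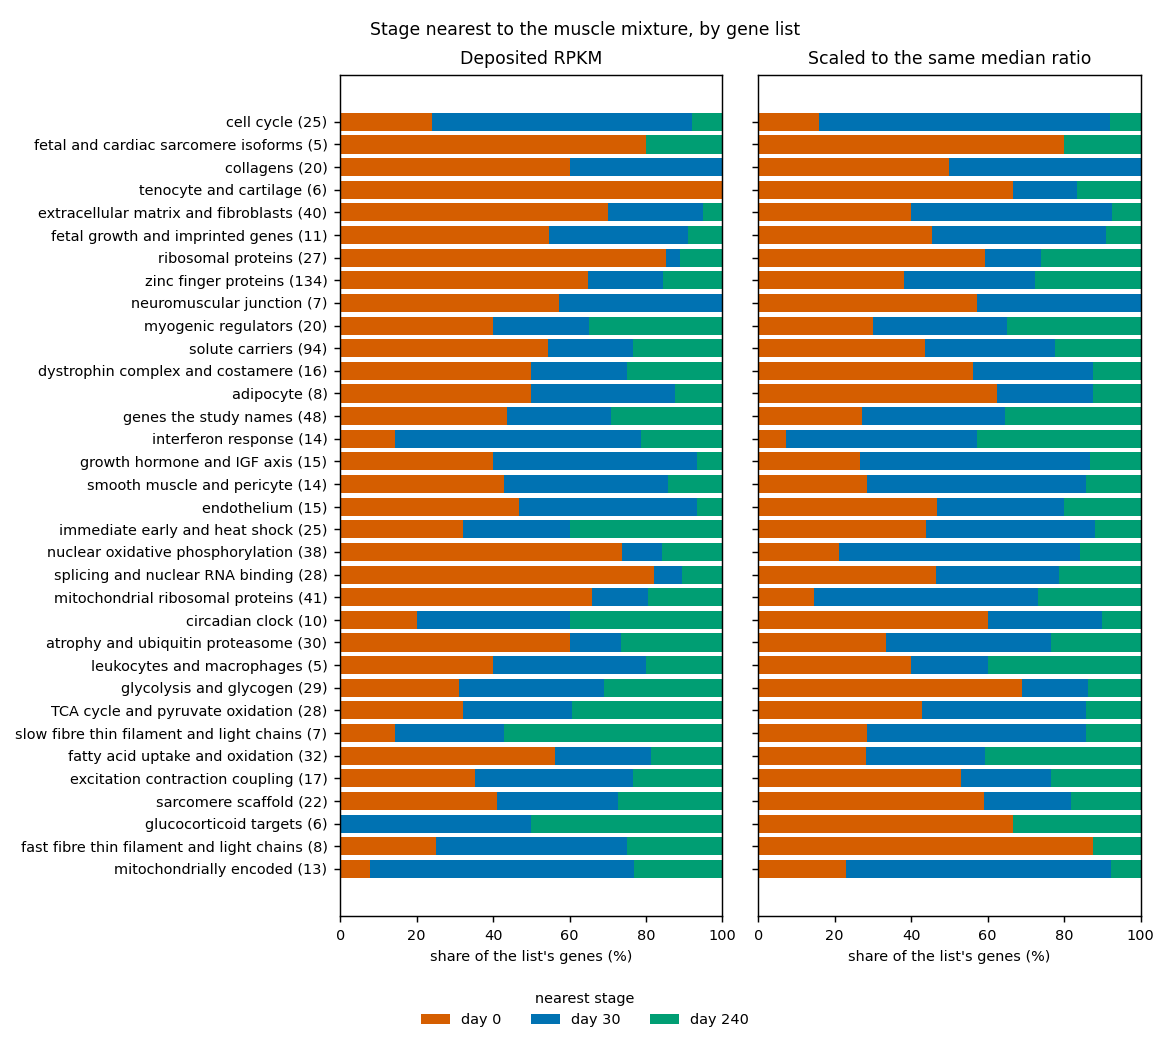
Share of each list's genes (%) for which day 0, day 30 or day 240 was nearest to the mixture, for the 34 lists with at least 5 genes passing the filter, as deposited and after scaling. Cell cycle genes are nearest to day 30 in 17 and 19 of 25 cases, and fast-fibre genes turn from 2 to 7 of 8 nearest to day 0.

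Single genes that differed most among the stages did not all follow one age. PDK4, CSRP3 (94.4 RPKM in the mixture and 327, 11.4 and 94.8 at days 0, 30 and 240) and PVALB, the calcium buffer of fast fibres (4.82 and 0, 19.7 and 7.77), each lay inside a wide range. TCEAL9 measured 11.04 RPKM in the mixture and 8.88, 1.44 and 0.0982, nearest to day 0. FNDC9 had 17.8 RPKM at day 30 and 0 in the other 3 libraries.

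Some genes above the range were not detected in the stages. In all, 81 genes above the range had 0 reads in all 3 stages, with 10 to 550 reads (median 66) in the mixture.

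The position of the other pooled library was then compared, using libraries that the rule did not use. The tissue mixture exceeded the highest of the 8 other organs, all at day 240, by 2-fold or more for 9.52% of the 10512 genes and lay under the lowest by 2-fold or more for 0.381%. Among the genes above the muscle range these shares were 15.4% (714 of 4624) and 0%, and among genes above it relative to the typical gene 27.2% (301 of 1107) and 0%. The 714 genes were 71.3% of the 1001 genes of the tissue mixture above its organs. Among the 56 genes below the muscle range, 0 were above and 16 (28.6%) were below the 8 organs in the tissue mixture, which is 40% of the 40 genes that the tissue mixture had below its organs.

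The 2 pooled libraries thus left their ranges in the same direction for larger shares of these genes than of all genes. Of the genes above the muscle range, 48.9% had passed the filter through the muscle mixture alone. Relative to the typical gene this was 77.3%. The part of this selection in the larger shares above was not tested. For MYL4 the tissue mixture measured 48.4 RPKM against 2.42 in the heart, the highest of the 8 organs, and for ND1 it measured 76.1 RPKM against 109 to 1847 in the organs. Whether the tissue mixture holds muscle, which ages it holds and which protocol it shares with the muscle mixture are not given in the sources used here, and their part in the result was not tested.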

How the data were processed

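Total RNA of pig tissues was sequenced in 13 libraries, of which 4 (the muscle mixture and longissimus dorsi at days 0, 30 and 240) carried the main comparison. Per the labels, TopHat 1.3.2 and Cufflinks were used by the authors. The study's methods state htseq-count for lncRNAs and RPKM. The deposited RPKM values are 1 column per library over 32420 features. The genome build, the strand setting of the counting and the reads forming the RPKM total are not given in the sources used here.

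Whole reads were recovered from the steps of the RPKM values. All 29462 features above 0 gave whole reads, and on simulated libraries 21832 of 21907 features came back exactly; 15 members are above 0 in fewer than 4 libraries, where gene length is weakly fixed. Symbols come from a table of Ensembl IDs. Differences are on log2(RPKM + 0.1). Each group is 1 library, so no test was run and 95% intervals (exact, conditional binomial, 3 reads as the floor for 0) cover counting error only. Analyses used Python 3.11.15, pandas 2.3.3 and scipy 1.17.1.

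Members and the 44 gene lists were chosen with earlier results of these data known. Named genes were, among those with a symbol: the 15 furthest above and the 15 furthest below the range at 5 RPKM or more; up to 4 most abundant and 2 furthest outside in each direction per list; all myosin heavy chains and myogenic regulators; the nearest to each limit; the 10 most abundant; and up to 5 per stage that vary most among stages. KLF1, GATA1, CCNB2 as a member inside the range, and the genes of the marker paragraphs outside these rules were named after their values were seen. A member of these lists is not reported here. Alternatives were the pseudocount, the filter, 2 scalings, leaving out each stage, a 4-fold limit and counting intervals. LncRNAs were left out of the comparison.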

Additional observations from a re-analysis of the deposited data

Results flagged for a closer look

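The lncRNAs assembled by the study were outside the comparison of Ensembl genes, and their signal in the mixture was counted the same way. Of 10813 listed, 638 reached 1 RPKM in the mixture or a stage, and 273 of these (42.8%) were above the range of the 3 stages by 2-fold or more as deposited, compared with 44.0% of Ensembl genes. Below the range were 14 (2.19%), compared with 0.533% of Ensembl genes. With at least 1 RPKM in the mixture and 0 reads in all 3 stages there were 24. The study's methods give libraries of organs and of the 3 muscle stages as the source of the lncRNA annotation.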

How the results depend on the processing

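Genes above the range numbered 4624 and below it 56. With a pseudocount of 1 the counts were 3081 and 32, with the 4-fold limit 1707 and 10, scaled to the same total 2989 and 136, and scaled to the same median ratio 1107 and 723. At 5 RPKM or more 1882 of 4594 genes were above. Leaving out day 30 gave 164 below, and requiring the counting interval past 2-fold gave 30 below. Day 0 was nearest for 37.2% after median-ratio scaling, and day 30 for 37.9% then and for 35.8% at the same total. By list, 17 were then nearest to day 30 and 1 to day 240. Pearson's r on the log2 scale was 0.745, 0.750 and 0.713 for days 0, 30 and 240, and the median absolute log2 difference 1.21, 1.87 and 1.77. The other alternatives for these counts and shares moved them by at most 1.5 times. Of 154 named genes outside the range, 46 came within 2-fold after median-ratio scaling and 27 dropped under the highest stage, with log2 differences of -0.051 (IFI44L), -0.25 (H2BC5), -0.17 (LAMC1), -0.070 (MYH7B), -0.23 (LUC7L), -0.20 (MYL11), -0.40 (DDX3X), -0.27 (FST), -0.066 (FH), -0.29 (KCNA7), -0.20 (USP9X), -0.12 (CACNA2D1), -0.31 (MYBPC1), -0.18 (PECAM1), -0.50 (KDM6A), -0.36 (CDH19), -0.52 (HDAC9), -0.49 (HDAC4), -0.49 (PFKP), -0.73 (SLC25A24), -0.51 (CRY2), -0.74 (HDAC5), -0.61 (TNNI1), -0.75 (PNPLA2), -0.012 (ANKRD1), -0.040 (ZZZ3) and -0.69 (TIAL1). Their move follows from the divisors of the mixture (2.29) and of the highest stage (0.605 to 1.11). No paired analysis was possible because each group is 1 library. Depth limits genes near 3 reads.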
